A study of Homo sapiens and Mus musculus with 33 samples.

Results

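The histone genes of human HCT116 cells and of mouse colon epithelium were followed through RNA sequencing and chromatin immunoprecipitation (ChIP) sequencing. A gene was taken when its name began with HIST1H, HIST2H, HIST3H, HIST4H, H1F, H2AF or H3F, and a ChIP peak when it lay in such a gene or within 2 kb of it. The names gave 88 of the 35805 genes in the HCT116 RNA table: 70 replication-dependent genes, 16 variant genes, the pseudogene HIST2H3PS2 and the antisense gene H1FX-AS1. In the colon RNA table they gave 81 of 25965 genes, of which 68 were replication-dependent and 13 were variants. The peaks numbered 56 of 40266 in the HCT116 table of H3K18cr and H3K18ac, 48 of 30338 in the colon H3K18cr table and 70 of 27035 in the colon H3K4me3 table. H3K18cr and H3K18ac are crotonylation and acetylation of lysine 18 of histone H3, and H3K4me3 is trimethylation of its lysine 4.

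HCT116 is an established human colon carcinoma line of epithelial origin. The cells received DMSO, the solvent, or 5 µM MS275 (entinostat), an inhibitor of class I histone deacetylases, for 18 h, with 4 RNA libraries and, for each mark, 3 ChIP libraries per treatment, and 1 input library per treatment. The colon epithelium came from untreated C57BL/6 mice and gave 3 RNA libraries, 2 H3K18cr libraries with 2 inputs and 3 H3K4me3 libraries with 1 input, so it carried no treatment comparison, and the study's methods pool several colons for the ChIP. The study's methods call the HCT116 RNA libraries biological replicates. For the HCT116 ChIP they name biological replicates too, but fewer than the libraries here, and do not say which libraries these are, so the spread behind p-values for the marks may in part be technical.

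Replication-dependent histone genes supply the core histones H2A, H2B, H3 and H4 and the linker histone H1 when DNA is copied. They are short, mostly without introns, lie in clusters, and their mRNA ends in a stem-loop bound by SLBP instead of a poly(A) tail. Variant genes stand alone, have introns in most cases, are transcribed throughout the cell cycle, and give polyadenylated mRNA for proteins such as H3.3, H2A.Z, macroH2A and H1.0. The RNA libraries were made from poly(A)-selected RNA, so for replication-dependent genes a count measures the transcripts that carried a poly(A) tail or escaped the selection, not the whole of their mRNA.

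The stem-loop is a mark of the first class, so its sequence is given first. Its part in the RNA counts was not tested. A 6-base stem beginning with GG, a 4-base loop beginning with TT and the exact complement of the stem were searched from 100 bases before to 60 bases after the RefSeq end of each human gene. The stem-loop was found at the end of 58 of 69 replication-dependent genes (84.1%), of 0 of 16 variant genes and of 3 of 15764 other protein-coding genes (0.019%), and of these 3, H2AC18 is itself a histone gene that the RNA table lists under another name. The 58 genes shared 5 sequences, given 5′ to 3′ as DNA with the stem in capitals. The most frequent was that of HIST1H1C (GRCh38, chr6:26055744-26055759, minus strand), HIST3H2A (chr1:228457369-228457384, minus strand) and HIST1H2AC (chr6:26124669-26124684, plus strand), and the next that of HIST1H4C (chr6:26104317-26104332, plus strand).

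Stem-loop of 37 genes: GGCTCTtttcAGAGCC

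Stem-loop of 10 genes: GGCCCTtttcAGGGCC

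Stem-loop of 7 genes: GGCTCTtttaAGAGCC

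Stem-loop of 3 genes: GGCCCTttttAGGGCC

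Stem-loop of 1 gene: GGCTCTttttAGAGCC

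The single gene with the fifth sequence was HIST2H2AC (chr1:149887391-149887406, plus strand). A further 6 replication-dependent genes had RefSeq models that ran past the stem-loop, which lay 8073 bases before the annotated end in HIST1H2BK and 12747 bases before it in HIST1H2BD. Of those 6 genes, 3 passed the filter on low RNA counts, against 14 of the 58 with the stem-loop at the end (24.1%) and 1 of the 5 in which none was found, the 1 being HIST1H2AG. H2AFX, a variant known to give both polyadenylated and stem-loop mRNA, had a match 1024 bases before its annotated end.

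The promoters of both classes were read from RefSeq (GRCh38.p14), from 250 bases before to 50 bases after the start, for 64 replication-dependent and 14 variant genes. On either strand, TATAAA (the TATA box) stood in 65.6% of replication-dependent promoters, 28.6% of variant promoters and in 3264 of all 27305 promoters. CCAAT stood in 84.4%, 78.6% and 35.7%, of the same sets, and ATTTGCAT, the octamer that POU2F1 binds, in 40.6%, 7.14% and 1.8%. Among variants, only H3F3B held the octamer, and H2AFY and H2AFY2 held none of the 3 motifs. The promoters of 3 genes that the RNA results turn on, and of HIST1H2BK as a replication-dependent example with all 3 motifs, are printed in the direction of the gene with motif matches in capitals, and overlapping matches run together. H1F0 had no entry.

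The H2AFZ window lies at chr4:99950226-99950525 (minus strand), the H2AFY2 window at chr10:70052596-70052895 (plus), the H1FX window at chr3:129316237-129316536 (minus) and the HIST1H2BK window at chr6:27146809-27147108 (minus).

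H2AFZ: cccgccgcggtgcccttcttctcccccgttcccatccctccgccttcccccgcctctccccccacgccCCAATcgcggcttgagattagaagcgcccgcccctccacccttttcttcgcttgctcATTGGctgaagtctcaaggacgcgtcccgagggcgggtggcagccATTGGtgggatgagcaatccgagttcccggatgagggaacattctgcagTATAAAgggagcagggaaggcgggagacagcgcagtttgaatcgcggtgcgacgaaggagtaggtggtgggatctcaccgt

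H2AFY2: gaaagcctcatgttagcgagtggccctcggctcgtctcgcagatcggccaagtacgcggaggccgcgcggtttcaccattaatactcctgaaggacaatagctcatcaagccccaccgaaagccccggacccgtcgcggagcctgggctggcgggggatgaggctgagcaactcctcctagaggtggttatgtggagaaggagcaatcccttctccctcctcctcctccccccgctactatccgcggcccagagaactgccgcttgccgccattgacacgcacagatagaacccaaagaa

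H1FX: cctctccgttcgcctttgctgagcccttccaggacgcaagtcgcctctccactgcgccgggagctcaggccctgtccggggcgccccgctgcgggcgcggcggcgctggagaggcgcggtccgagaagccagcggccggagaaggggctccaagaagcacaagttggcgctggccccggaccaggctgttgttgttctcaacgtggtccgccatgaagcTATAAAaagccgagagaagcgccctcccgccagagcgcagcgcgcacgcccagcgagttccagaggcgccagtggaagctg

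HIST1H2BK: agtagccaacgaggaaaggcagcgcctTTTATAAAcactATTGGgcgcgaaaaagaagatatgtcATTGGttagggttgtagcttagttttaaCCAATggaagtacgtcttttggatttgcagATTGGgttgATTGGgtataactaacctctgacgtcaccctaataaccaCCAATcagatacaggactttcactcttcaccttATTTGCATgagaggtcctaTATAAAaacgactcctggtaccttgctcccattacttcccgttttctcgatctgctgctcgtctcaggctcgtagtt

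The H2AFZ window held 1 TATAAA and 3 CCAAT matches, the H1FX window 1 TATAAA, the HIST1H2BK window 3 TATAAA, 6 CCAAT and 1 octamer, and the H2AFY2 window none. A match is a run of letters and was not tested for function.

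The HCT116 RNA libraries held 35608533 to 53415604 counts and the colon RNA libraries 8166406 to 10707901. Reads in peaks numbered 2236551 to 5730094 per HCT116 ChIP library and 1374609 to 1550122 per input. Of the libraries, DMSO replicate 3 of H3K18ac stood apart over histone peaks, with 22450 scaled reads in all against 11470 and 15430 in the other DMSO libraries. RNA levels are given as CPM, a gene's count relative to its library total after TMM scaling, edgeR's correction for library composition. Epithelial markers were high in HCT116 (3605 to 5366 CPM in sum over 10 genes in DMSO) and immune markers low (5.81 to 9.31 over 8 genes), with none of either list at 0 in every library. CDKN1A, a gene that deacetylase inhibitors are known to raise, stood at 155.8, 177.3, 227.5 and 199.2 CPM in DMSO and at 205.3, 210.1, 294.8 and 214.7 in MS275. It passed the edgeR test only with the replicate number as a block, which sets MS275 1 against DMSO 1 and so on (log2 fold change 0.28 ± 0.07 SE, adjusted p = 0.0168, higher in 4 of 4 pairs), and no longer passed without pair 1 (adjusted p = 0.0786) or pair 2 (0.0763).

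RNA of variant histone genes under MS275. Variant genes took most of the histone counts in these poly(A)-selected libraries, which do not measure the whole of replication-dependent mRNA. Without a block, edgeR called 0 of the 11 tested variants. With libraries of the same number compared as pairs, it called 4 of 11, against 14.4% of all genes tested. The linker histones H1F0 and H1FX rose and H2AFZ and H2AFY2 fell. H1F0, which encodes H1.0, a linker histone known to build up in differentiating cells, stood at 507.7, 552.6, 471.0 and 505.1 CPM in DMSO and at 742.4, 659.5, 709.2 and 618.1 in MS275. All 4 MS275 libraries lay above all 4 DMSO libraries. With the block, H1F0 was 1.34-fold higher (log2 0.42 ± 0.07 SE, edgeR adjusted p = 0.00197). H2AFY2, which encodes macroH2A2, stood at 57.5, 74.9, 89.4 and 65.2 CPM in DMSO and at 39.7, 44.8, 54.4 and 43.8 in MS275, again without overlap, and its blocked log2 fold change was −0.64 ± 0.09 SE (edgeR adjusted p = 0.000772).

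H2AFZ encodes H2A.Z, the variant that flanks many transcription start sites. It stood at 755.3, 684.2, 786.9 and 587.4 CPM in DMSO and at 615.8, 578.8, 647.1 and 464.7 in MS275. The groups overlapped, but each MS275 library lay below the DMSO library of its number, and the blocked log2 fold change was −0.29 ± 0.05 SE (edgeR adjusted p = 0.00391). H1FX, a linker histone expressed in many cell types, stood at 278.6, 228.6, 346.7 and 198.9 CPM in DMSO and at 320.2, 256.2, 491.7 and 224.3 in MS275. It was higher in 4 of 4 pairs (0.26 ± 0.07 SE, edgeR adjusted p = 0.026) and lost the call without any single pair (adjusted p 0.0616 to 0.0722), whereas H1F0, H2AFY2 and H2AFZ kept theirs without each pair. H1FX-AS1 overlaps the start of H1FX, and whether counting used strand is not stated, so reads of the pair may not be told apart.

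Without the block, edgeR called 0 of the 30 histone genes tested and 1 of 14961 genes in all (0.00668%), although 987 genes, H1F0 and H2AFY2 among them, had an unadjusted p under 0.05. DESeq2 called 0 histone genes and 161 in all. With the block, edgeR called 2151 genes (14.4%), 1171 higher (7.83%) and 980 lower (6.55%), so 4 of 11 variant genes is to be read against 14.4%. That background was itself unsteady: without pair 1, 2, 3 or 4 the block gave 968, 994, 2584 or 1037 genes, and 3 variants each time. Libraries of the treatments did not overlap for 2 of the 11 variant genes and for 5.37% of all genes tested.

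The other 7 tested variants did not pass either edgeR fit. H3F3B, the stronger of the genes for H3.3 and the highest histone transcript by CPM, stood at 1124, 890.6, 949.7 and 865.6 CPM in DMSO and at 988.6, 937.8, 919.9 and 842.1 in MS275 (blocked log2 fold change −0.05 ± 0.06 SE, edgeR adjusted p = 0.613). H3F3A, the other H3.3 gene, was lower in 4 of 4 pairs without passing (−0.25 ± 0.09 SE, edgeR adjusted p = 0.0748). H2AFV, the second H2A.Z gene, was higher in 4 of 4 pairs without passing (0.13 ± 0.06 SE, edgeR adjusted p = 0.219). H2AFX, whose protein is phosphorylated at DNA breaks, H2AFY (macroH2A1), H2AFJ and H3F3C had blocked log2 values between −0.14 and 0.19. H1FOO, H1FNT and the H2AFB genes, known from germ cells, did not pass the filter, and all 9 listed germ cell histone genes together reached at most 0.023 CPM in a library.

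Per kilobase of exon, the levels in DMSO ran from 309.9 CPM per kb for H2AFZ through H1F0 (231.0), H2AFX (218.3), H1FX (173.6) and H3F3B (156.1) to H3F3A (59.5), H2AFV (24.2), H2AFY (16.5), H3F3C (10.8), H2AFY2 (4.79) and H2AFJ (4.56). In MS275 the means of H1F0 (309.6), H2AFZ (254.0) and H2AFX (240.5) came first, with libraries that overlapped (280.4 to 336.8, 204.7 to 285.1 and 149.2 to 418.2). Over the 4 DMSO libraries H2AFZ (258.7 to 346.7) lay above H1F0 (213.7 to 250.7) without overlap, while H1F0, H2AFX (140.9 to 341.4), H1FX (131.2 to 228.7) and H3F3B (141.1 to 183.3) each overlapped their neighbour in this order, as did H2AFY2 and H2AFJ.

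**Figure D1:**
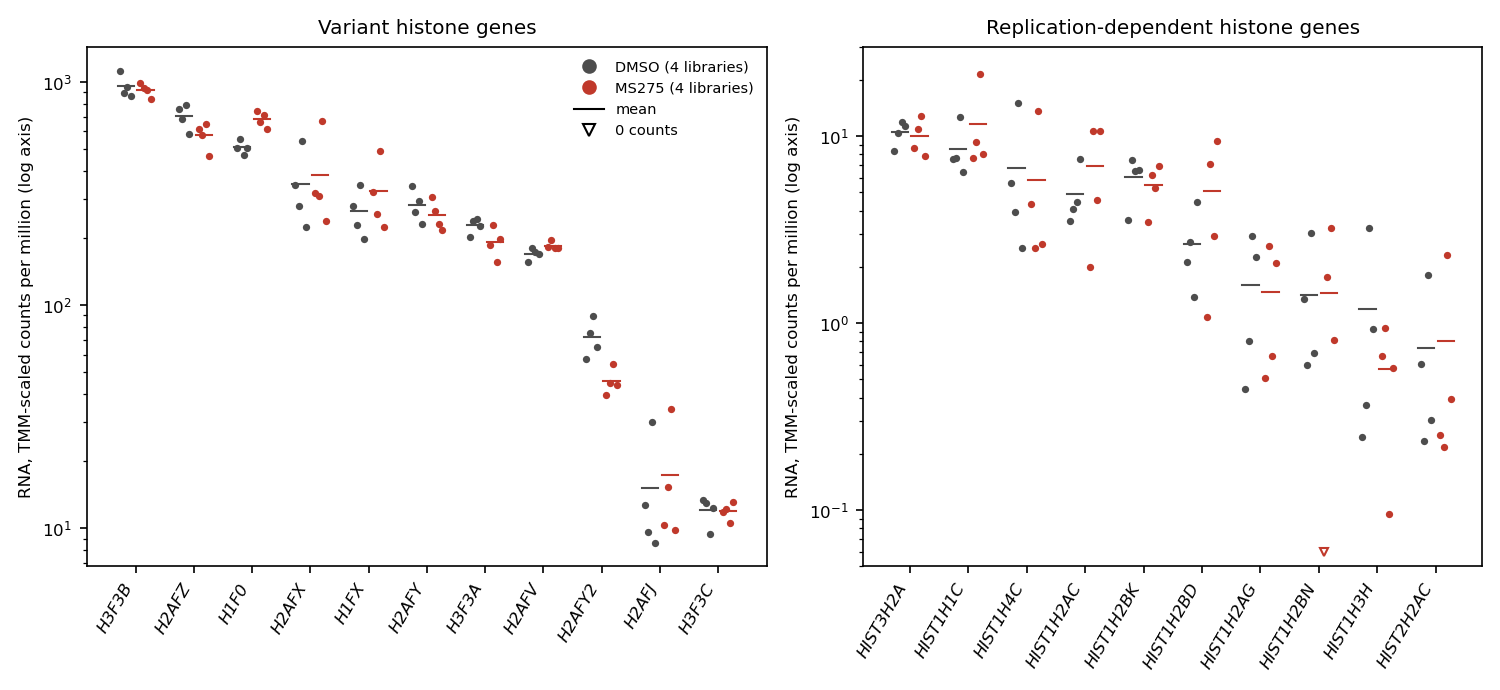
RNA of the 11 tested variant genes (left) and of the 10 replication-dependent genes with the highest mean (right), in TMM-scaled CPM on a log axis. Each point is 1 library (4 DMSO, 4 MS275), bars are means, and an open triangle marks 0 counts. H1F0 and H2AFY2 separate by treatment, and replication-dependent genes reach 21.4 CPM at most, in 1 library of HIST1H1C.

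RNA of replication-dependent histone genes under MS275. No replication-dependent gene changed in either edgeR fit, and most were too low to test: 18 of 70 passed the filter, and 21 had 0 counts in all 8 libraries. Their median log2 fold change was −0.10 without the block, beside −0.013 for tested variants and 0.01 for all genes tested. Of the 18 tested genes, 0 were called without the block, 0 with it, 0 by DESeq2, and 0 had an unadjusted p under 0.05. Together the 70 genes took 50.3 ± 11.3 CPM (SD, n = 4, of the library total) in DMSO and 55.1 ± 13.3 in MS275, against 3528 ± 227 and 3595 ± 263 for the 16 variants. The median SE of the log2 fold change was 0.98 for tested replication-dependent genes and 0.17 for tested variants, so for most of the former a change of the size seen in H1F0 lies within 1 SE.

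HIST3H2A had the highest mean, at 8.35, 10.5, 11.9 and 11.4 CPM in DMSO and 8.64, 10.9, 12.9 and 7.87 in MS275 (log2 fold change −0.06 ± 0.24 SE, edgeR adjusted p = 0.988). HIST1H1C, which encodes the linker histone H1.2, stood at 7.57, 7.64, 12.7 and 6.40 CPM in DMSO and at 7.67, 9.32, 21.4 and 7.99 in MS275, higher in 4 of 4 pairs (blocked 0.35 ± 0.18 SE, edgeR adjusted p = 0.239). HIST1H4C, an H4 gene, stood at 5.60, 3.91, 15.1 and 2.54 CPM in DMSO and at 4.35, 2.52, 13.7 and 2.64 in MS275. In these latter genes, and in HIST2H2AC, H2AFX, H1FX and H2AFJ, the library numbered 3 was the highest of both treatments, as it was in CDKN1A and HDAC3, which are no histone genes. HIST1H2BD, an H2B gene whose model runs past the stem-loop, stood at 2.12, 2.71, 1.39 and 4.43 CPM in DMSO and at 1.08, 7.07, 2.93 and 9.40 in MS275 (blocked 0.69 ± 0.42 SE, edgeR adjusted p = 0.301), with both groups overlapping.

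HIST1H2AC and HIST1H2BK averaged 4.89 and 6.04 CPM in DMSO and 6.96 and 5.46 in MS275, and HIST1H2AG, HIST1H2BN, HIST1H3H and HIST2H2AC lay between 0.57 and 1.61 in either group. The near-identical copies HIST2H2AA3 and HIST2H2AA4, HIST2H3A, HIST2H3C and HIST2H3D, and HIST2H4A and HIST2H4B are uncertain, since how reads that map to several places were treated is given for the mouse RNA alone (unique reads only), and HIST2H2AA4 stands at 2 places in the table.

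Genes that make histone mRNA and handle histones. Among 15 genes that switch on replication-dependent histone genes or process, translate and degrade their mRNA, 1 rose and 1 fell with the block, near the shares of all genes (7.83% and 6.55%), and 0 passed without it. POU2F1, which binds the octamer, stood at 31.4, 32.7, 60.3 and 40.8 CPM in DMSO and at 56.9, 46.4, 61.4 and 55.3 in MS275 (blocked 0.46 ± 0.12 SE, edgeR adjusted p = 0.026). CPSF2, part of the enzyme complex that cuts the mRNA behind the stem-loop, fell (−0.39 ± 0.10 SE, edgeR adjusted p = 0.018). Neither kept the call without each pair, and CPSF2 lost it without pair 1 (adjusted p = 0.0547) or 2 (0.103), POU2F1 without pair 1 (0.143), 2 (0.125) or 4 (0.0755). Among 27 histone chaperones and loaders, 0 rose and 5 fell with the block, beside 7.83% of all genes higher and 6.55% lower: MCM2, VPS72, IPO4, SSRP1 and ANP32E. The list's median blocked log2 fold change was −0.06, against 0.01 for all genes tested. VPS72, a subunit that loads H2A.Z, stood at 52.3, 48.6, 53.2 and 52.8 CPM in DMSO and at 37.6, 30.5, 38.6 and 42.6 in MS275, without overlap (−0.48 ± 0.10 SE, edgeR adjusted p = 0.00707). MCM2, a replicative helicase subunit that also binds histones, fell by 0.38 on the log2 scale (SE 0.06, edgeR adjusted p = 0.0017). MCM2 and VPS72 kept their call without each pair, and IPO4, an importin for H3 and H4, SSRP1, a FACT subunit, and ANP32E, which removes H2A.Z, did not. IPO4 lost it without pair 1 (0.0573), SSRP1 without pair 2 (0.0604) or 4 (0.118), and ANP32E without pair 1 (0.103), 2 (0.0506) or 4 (0.175).

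Since replication-dependent genes follow S phase, cell cycle genes were set beside them. Of 20 S phase genes, 0 rose and 6 fell with the block, beside 7.83% of all genes higher and 6.55% lower, and none passed without it. The list's median blocked log2 fold change was −0.17, against 0.01 for all genes tested. TYMS, MCM5, MCM3, PCNA and FEN1 led, and TYMS, which makes thymidylate, fell by 0.45 on the log2 scale (SE 0.07, edgeR adjusted p = 0.00122). TYMS, MCM5 and PCNA kept their call without each pair, while MCM3 lost it without pair 4 (adjusted p = 0.0587) and FEN1 without pair 1 (0.102), 2 (0.0547) or 4 (0.126). Of 12 genes of G2 and mitosis, 4 rose, MKI67 and TOP2A among them, and 3 fell, namely CCNB1, PLK1 and AURKA (median −0.018). CCNB1 and PLK1 kept the call without each pair. MKI67 (adjusted p 0.0771 without pair 1 and 0.0856 without pair 4) and TOP2A (0.0635 and 0.0953) did not, and AURKA lost it without any pair (0.0758 to 0.131). The summed level of the S phase list was 2993 to 4473 CPM in DMSO and 2588 to 4118 in MS275, and that of the G2 and mitosis list 2272 to 3218 and 2397 to 3315. The part of the cell cycle in the histone results was not tested.

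Markers of cell types were read in the same libraries, and 0 passed without the block. Of the 8 epithelial markers tested, 4 rose (CDH1, KRT8, KRT18, KRT19) and 3 fell (CLDN7 among them) with the block, beside 7.83% of all genes higher and 6.55% lower, and the list summed to 4595 to 6189 CPM in MS275. KRT19 lost its call without pair 2 (adjusted p = 0.0719) and CLDN7 without pair 1 (0.0628), 2 (0.142) or 4 (0.205). Of 4 stromal markers tested, COL1A1 rose (blocked 0.92 ± 0.20 SE, edgeR adjusted p = 0.00874, lost without pair 1 at 0.0647), and the 7 stromal markers summed to 13.6 to 19.0 CPM in DMSO and 25.5 to 30.2 in MS275. Of 2 immune markers tested, 0 passed. The part of these changes in the histone results was not tested. HDAC1, HDAC2 and HDAC3, the targets of MS275, did not pass (blocked log2 fold changes of 0.06, −0.08 and 0.14).

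Peaks at the starts of histone genes. In HCT116, replication-dependent genes whose counts were too low to test often carried a peak within 1 kb of the start: 27 of 52 (51.9%), against 3361 of 20844 such genes in the whole table (16.1%). Of those that passed, 17 of 18 had one (94.4%), and of all genes that passed, 12214 of 14961 (81.6%). Variants split by RNA: 10 of 11 that passed had a peak, and 0 of 5 that did not. Neighbouring genes of a cluster often share 1 peak and are not independent, and no test was made of these shares. The RNA of HCT116 and colon was poly(A)-selected, so a low count of a replication-dependent gene does not show that it was silent. In the colon a gene was counted as passed at 10 or more counts in each of 3 libraries. H3K18cr peaks stood at 37 of 58 replication-dependent genes that did not pass (63.8%) and H3K4me3 peaks at 44 of 58 (75.9%), against 11.4% and 27.5% of all genes that did not pass. None of the 3 variants that did not pass had either. Of the genes that passed, 8 of 10 replication-dependent genes and 7 of 10 variants had an H3K18cr peak, beside 81.0% of all passed genes, and 7 of 10 and 9 of 10 an H3K4me3 peak, beside 87.3%.

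**Figure D2:**
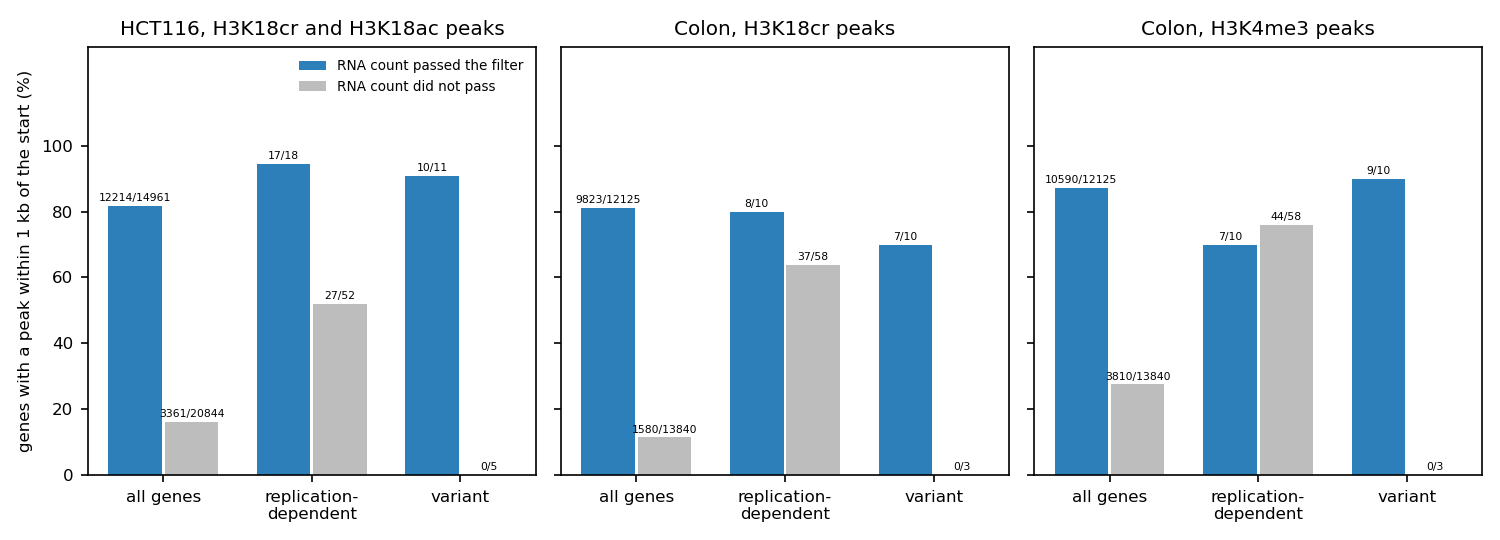
Percent of genes with a peak within 1 kb of the start, for all genes, replication-dependent and variant histone genes, in the HCT116 table and both colon tables. Blue bars are genes whose RNA passed the filter on low counts, grey bars those that did not, with numbers of genes above. Grey bars reach 51.9%, 63.8% and 75.9% for replication-dependent genes, whose low poly(A)-selected counts do not show that they were silent.

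H3K18cr and H3K18ac at histone genes under MS275. Reads of both marks at histone gene starts were fewer in MS275 than in DMSO. H3K18cr reads fell at 38 of 56 histone peaks (67.9%), against 23.0% of all peaks and 59.4% of peaks at protein-coding starts. H3K18ac reads fell at 24 of 56 (42.9%), against 16.3% and 46.9%. Both classes of gene held such peaks, and 0 histone peaks rose. The study's own test of these marks over starts was paired. With the replicate number as a block, 38 histone peaks were lower and 1 was higher in H3K18cr, the peak at HIST1H2BB, against 26.1% of all peaks and 65.5% of peaks at protein-coding starts lower and 0.515% of all peaks higher. In H3K18ac 0 of 56 passed with the block, where 2.01% of all peaks and 6.01% of protein-coding starts were lower and 0.0224% of all peaks were higher. Reads were scaled to library size before deposit, so these are changes in a peak's share of its library, and a change of the mark over all chromatin cannot be seen. The study reports more histone crotonylation after MS275 by western blot, and more H3K18cr by ChIP-qPCR over promoters and repeats. For the relative drop over starts it proposes a gain outside them, which was not tested here. Over the 41 replication-dependent peaks, H3K18cr summed to 12860, 12230 and 10180 scaled reads in DMSO and to 6450, 6376 and 7841 in MS275. Over the 14 variant peaks it summed to 4594, 4297 and 3589 in DMSO and to 2428, 2307 and 2636 in MS275, so the treatments did not overlap in either class. For H3K18ac the replication-dependent sums were 8147, 10940 and 16560 in DMSO and 8721, 6635 and 5683 in MS275, which overlap through DMSO replicate 1 and MS275 replicate 1. The variant sums were 3188, 4345 and 5651 in DMSO and 2869, 2361 and 2135 in MS275. The inputs had 2956 and 2672 reads over the replication-dependent peaks.

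**Figure D3:**
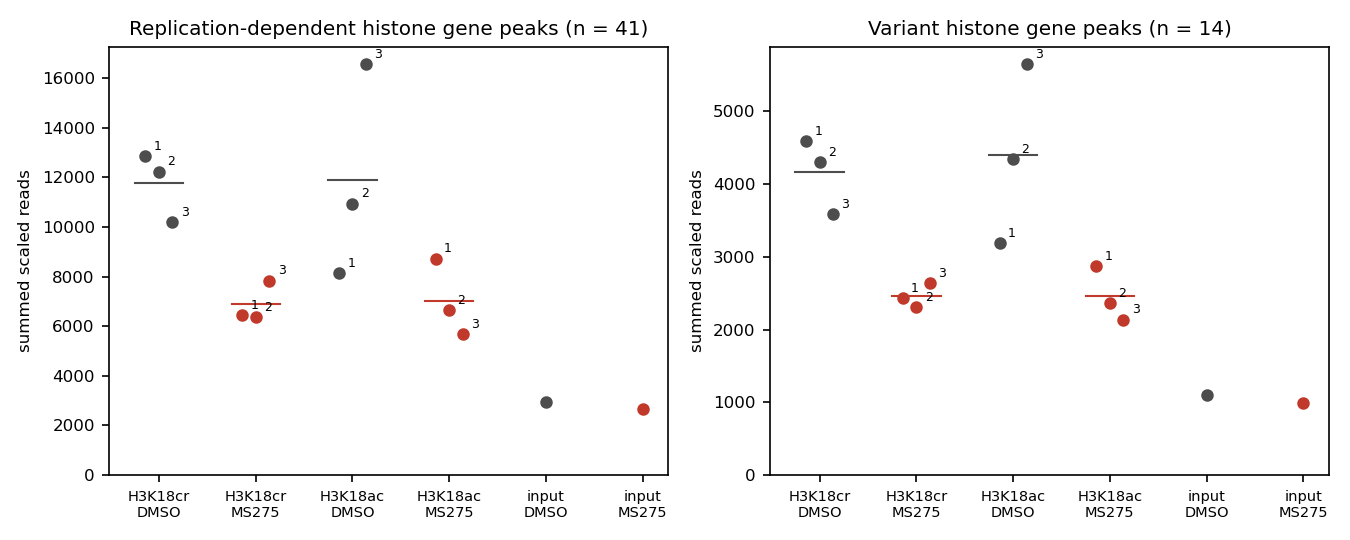
Summed scaled reads over the 41 replication-dependent and the 14 variant histone peaks in each HCT116 ChIP and input library. Points are libraries numbered by replicate and bars are means of 3. H3K18cr separates the treatments in both panels, and DMSO replicate 3 is the highest H3K18ac library.

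Among replication-dependent peaks, H3K18cr fell at 26 of 41 and H3K18ac at 15 of 41 (limma on log2 values with Benjamini-Hochberg adjustment over all peaks). Among variant peaks they fell at 11 of 14 and 8 of 14, and the peak at the start of HIST4H4, which lies within 2 kb of H2AFJ as well, fell in both marks. Over all peaks H3K18cr was lower at 23.0% and higher at 0.232%, and H3K18ac lower at 16.3% and higher at 0.264%. A closer background is peaks at the starts of protein-coding genes, of which 59.4% were lower in H3K18cr and 46.9% in H3K18ac. At starts, H3K18cr fell at 24 of 26 replication-dependent and 10 of 11 variant peaks, and H3K18ac at 14 of 26 and 7 of 11. Away from starts H3K18cr fell at 2 of 15 and H3K18ac at 1 of 15 replication-dependent peaks. Histone peaks hold many reads, and among start peaks with a mean of at least 100 scaled reads H3K18cr fell at 34 of 34 histone peaks against 74.3% of protein-coding ones, and H3K18ac at 22 of 34 against 58.5%. Above that cut the histone peaks still held more H3K18cr reads in DMSO (median 363.2 against 207.1) and were wider (median 5400 against 3150 bp).

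The median log2 fold change of histone peaks was −0.68 for H3K18cr and −0.61 for H3K18ac, against −0.20 and −0.19 for all peaks. For the 38 histone peaks at a start it was −0.75 and −0.76, against −0.57 and −0.64 for protein-coding starts. TMM scaling over the peaks moved the median of all peaks to 0.04 and 0.06 and that of all histone peaks to −0.44 and −0.36. At starts the TMM medians were −0.51 and −0.51 for histone peaks and −0.33 and −0.39 for protein-coding genes. It left 26 histone peaks lower and 1 higher in H3K18cr (11.3% of all peaks lower, 4457 against 749 higher) and 28 lower and 2 higher in H3K18ac (16.8% of all peaks lower, 6631 against 1869 higher). The libraries of the treatments did not overlap at 37 of 56 histone peaks in H3K18cr (66.1%) and 22 of 56 in H3K18ac (39.3%), against 33.1% and 26.4% of all peaks. At starts they did not overlap at 34 of 38 histone peaks in H3K18cr (89.5%) and 18 of 38 in H3K18ac (47.4%), against 66.3% and 54.0% of protein-coding starts. The H3K18ac calls depended on single libraries. Replication-dependent peaks lower in H3K18ac numbered 22, 3 and 6 without DMSO replicate 1, 2 or 3 and 20, 1 and 0 without MS275 replicate 1, 2 or 3, and variant peaks 11, 2 and 4, and 10, 2 and 1. None of the 24 H3K18ac calls held without each library, whereas 25 of the 38 H3K18cr calls did. The change did not differ measurably between the marks: 0 of 40266 peaks passed limma's interaction test (0.0%), 739 had an unadjusted p under 0.05, and 2 of these were histone peaks.

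**Figure D4:**
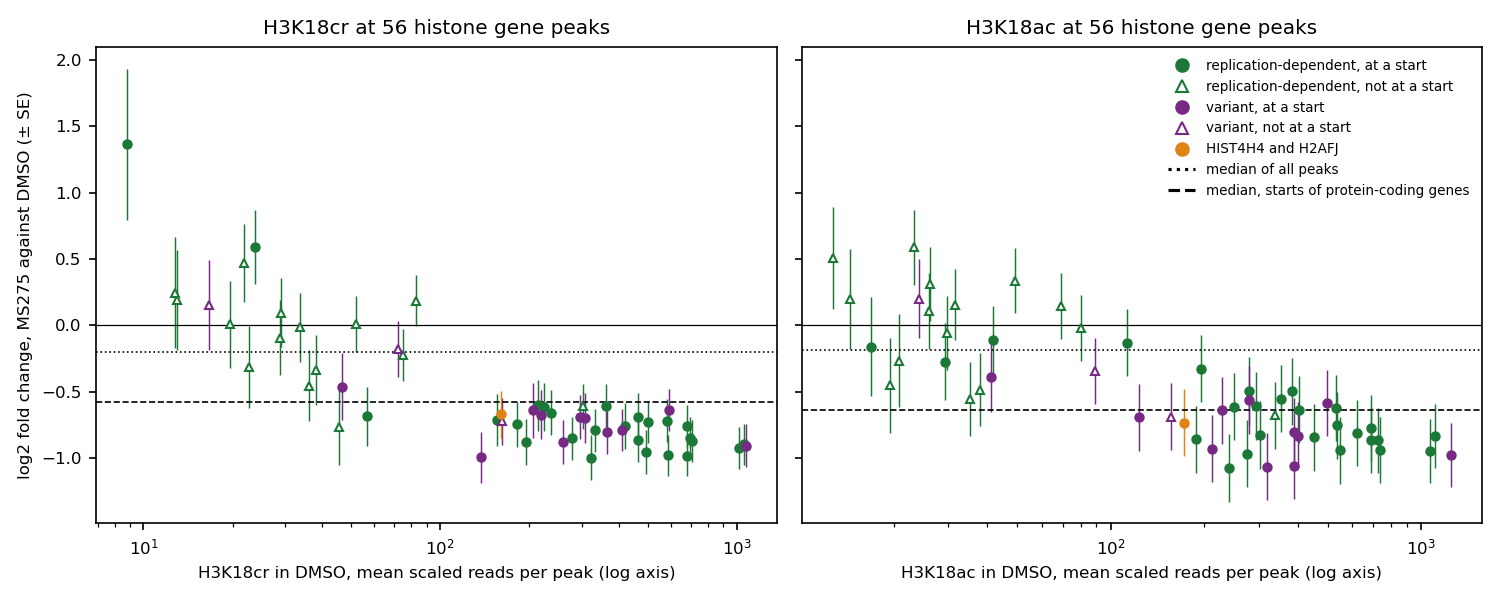
Change of H3K18cr (left) and H3K18ac (right) at the 56 histone peaks, as log2 fold change in MS275 against DMSO with its SE, over the mean scaled reads in DMSO on a log axis. Colours mark the class, filled circles peaks at a start, open triangles other peaks, and lines the medians of all peaks (dotted) and of protein-coding starts (dashed). Peaks above 100 reads lie below the dotted line, apart from 1 H3K18ac peak at the starts of HIST1H2AJ and HIST1H2BM, and peaks with few reads scatter around 0.

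The highest peak lay over H3F3B (chr17:75778501-75789450, GRCh38), with H3K18cr at 1086, 1052 and 1073 scaled reads in DMSO and 538.7, 464.5 and 747.7 in MS275 (log2 fold change −0.90 ± 0.16 SE, limma adjusted p = 0.000131). H3K18ac there stood at 835.4, 1347 and 1558 in DMSO and 733.6, 600.5 and 524.0 in MS275 (−0.97 ± 0.24 SE, limma adjusted p = 0.00132), and lost the call without DMSO replicate 2 (adjusted p = 0.0521), MS275 replicate 2 (0.0576) or MS275 replicate 3 (0.0762). H3F3B RNA did not pass the test.

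The next peaks covered groups of replication-dependent genes on chromosome 6: HIST1H2BC and HIST1H2AC (chr6:26115001-26127900), and HIST1H3A, HIST1H4A, HIST1H4B and HIST1H3B (chr6:26019151-26031150). H3K18cr fell there by 0.90 (SE 0.15, limma adjusted p = 0.000106) and 0.92 (SE 0.16, 9.76e-05) on the log2 scale. The peak over HIST1H1C alone (chr6:26050351-26058750) had H3K18cr at 732.0, 642.9 and 662.0 in DMSO and at 312.7, 317.2 and 409.6 in MS275 (−0.98 ± 0.15 SE, limma adjusted p = 5.02e-05), the lowest adjusted p among histone peaks. The deepest fall was that over HIST1H4J (chr6:27820951-27826050, −0.996 ± 0.17 SE, limma adjusted p = 9.56e-05), followed by H2AFJ (chr12:14773351-14776050, −0.99 ± 0.19 SE, adjusted p = 0.000284). The peak over HIST1H4C and HIST1H1T (chr6:26100901-26108250) fell by 0.60 (SE 0.16, limma adjusted p = 0.00507) and lost the call without DMSO replicate 1 (0.0552) or MS275 replicate 1 (0.0533), and under TMM scaling (0.0551). A peak over several genes cannot be assigned to 1 of them.

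Scaled H3K18cr reads fell at the starts of variants whose RNA rose (H1F0, H1FX) and of those whose RNA fell (H2AFZ, H2AFY2) with the block. The H3K18ac log2 fold changes at these 4 were −0.58, −0.80, −0.64 and −0.56 in the same order, and no difference between the marks passed. All of these are changes in a share of the library, so whether either mark itself fell there cannot be seen. At H1F0 (chr22:37801351-37809000) H3K18cr stood at 658.0, 649.7 and 470.2 in DMSO and at 361.0, 381.0 and 391.4 in MS275 (−0.63 ± 0.16 SE, limma adjusted p = 0.00296), while its RNA rose. At H1FX (chr3:129312151-129317550) H3K18cr fell by 0.79 (SE 0.16, limma adjusted p = 0.00041) and H3K18ac by 0.80 (SE 0.25, adjusted p = 0.014). At H2AFZ (chr4:99948601-99951600) H3K18cr stood at 267.0, 233.4 and 156.2 in DMSO and at 140.6, 147.3 and 116.4 in MS275 (−0.67 ± 0.18 SE, limma adjusted p = 0.007), and lost the call without DMSO replicate 1 (0.0813) or MS275 replicate 3 (0.0514), and under TMM scaling (0.0796). At H2AFY2 (chr10:70051051-70054650) it averaged 307.7 in DMSO, with 198.0 in the lowest library, and stood at 175.5, 179.9 and 193.6 in MS275 (−0.69 ± 0.19 SE, limma adjusted p = 0.00608), and lost the call without DMSO replicate 1 (0.0885). At H1F0, H2AFZ and H2AFY2 the limma adjusted p of H3K18ac was 0.0957, 0.0658 and 0.121 (SE of 0.25 each). H3K18ac fell the most among variants at H2AFV (−1.06 ± 0.25 SE, limma adjusted p = 0.000954) and H2AFY (−1.06 ± 0.25 SE, 0.000948). H3F3C, an H3.3-like gene, had no peak at its start.

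Histone RNA in mouse colon epithelium. In the colon, variants again took most of the poly(A)-selected histone counts, with 1546 ± 82.9 CPM (SD, n = 3) in sum against 249.9 ± 28.3 for replication-dependent genes. H3f3b led at 619.0, 571.4 and 536.4 CPM, followed by H1f0 at 309 ± 15.5 (SD, n = 3), H2afj at 213.1, 212.7 and 217.0, H2afy at 168 on average and H3f3a at 92.5. These CPM are counts over library totals, without TMM scaling. The highest replication-dependent genes were Hist1h1c (131.8, 103.7 and 84.9 CPM), Hist1h2bc (63.4, 65.4 and 56.2), Hist3h2a (19.7 on average), Hist1h2ao (13.6) and Hist2h2be (13.0), beside a highest mean over all 8 libraries of 10.3 CPM (HIST3H2A) in HCT116. H2afz stood at 38.6, 35.4 and 31.0 CPM. Epithelial markers summed to 12550 to 14200 CPM over all 10 genes. Stromal markers summed to 40.1 to 52.8 over the 5 of 7 found by name, and immune markers to 19.0 to 27.1 over 4 of 8.

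Per kilobase of exon, H2afj stood at 117.0 ± 1.29 CPM per kb (SD, n = 3) and H2afz at 19.7 ± 2.13 in the colon, whereas HCT116 cells in DMSO had 4.56 for H2AFJ and 309.9 for H2AFZ. H2A.J is a variant known from epithelial and senescent cells. H3f3b (193.4) and H1f0 (150.4) were high in both. The tables differ in species, build and preparation, so these levels are given side by side without a test, and tissue cannot be told apart from species.

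**Figure D5:**
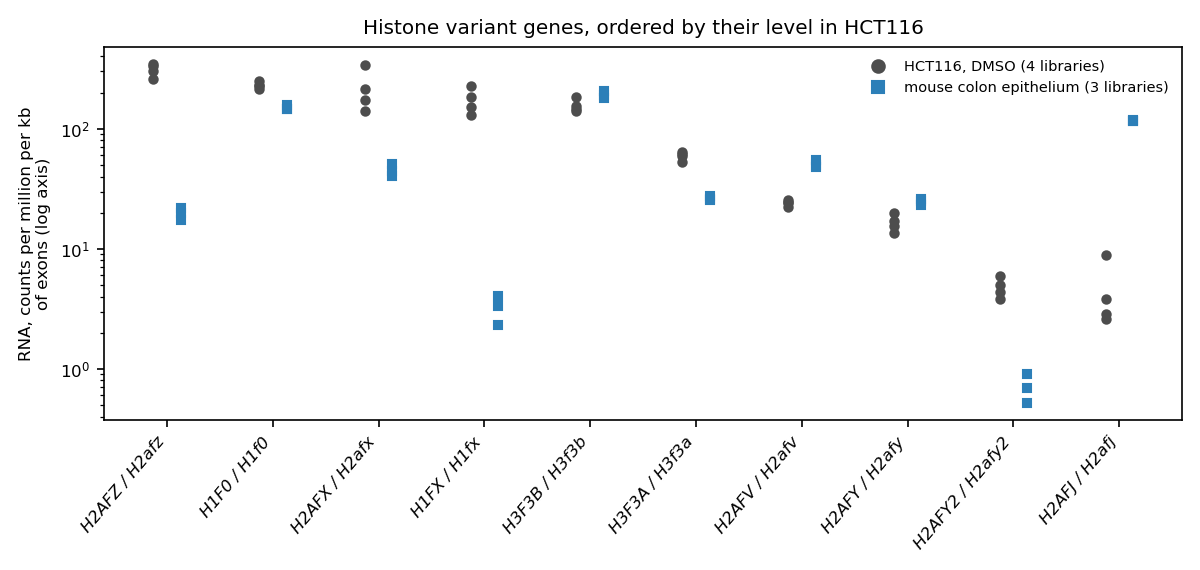
RNA of 10 variant genes in HCT116 cells in DMSO (circles, 4 libraries) and of the genes of the same name in mouse colon epithelium (squares, 3 libraries), in CPM per kb of exon on a log axis. H2AFZ is first and H2AFJ last in HCT116, while in the colon H2afj lies above H2afz.

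H3K18cr and H3K4me3 at histone genes of the colon. All 48 H3K18cr and all 70 H3K4me3 histone peaks held more scaled reads than input, as did all 30338 and all 27035 peaks of these tables, so that count says nothing particular about histone genes. With 1 or 2 inputs and 2 or 3 ChIP libraries, no test was made. The median log2 ratio to input was 1.34 for H3K18cr histone peaks (1.27 replication-dependent, 1.67 variant), beside 1.33 for all peaks and 1.55 for peaks at protein-coding starts. Replicates differed, at 0.99 and 1.65. For H3K4me3 it was 1.80 (1.64 and 2.23), beside 1.70 and 2.54. At starts variants reached 2.65 and replication-dependent genes 1.65, so H3K4me3 over replication-dependent starts lay below the median of protein-coding starts. As shares of each library's own reads in peaks, the median log2 ratio of all histone peaks turned to −0.10 for H3K18cr and −0.47 for H3K4me3, beside −0.13 and −0.53 for all peaks. On that scale variant starts stayed above input (0.24 and 0.34), as did protein-coding starts (0.085 and 0.20), while replication-dependent starts lay at −0.16 and −0.50.

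The highest H3K18cr peak lay at H1f0 (GRCm38, chr15:79026601-79029450), with 252.8 and 483.1 scaled reads against 55.0 and 94.6 in the inputs, a log2 ratio of 2.28. Next came H2afj, the peak shared by Hist2h2ab, Hist2h2ac and Hist2h2be, that shared by Hist1h2be and Hist1h1e, and H3f3a, with means of 332.9, 308.0, 299.5 and 297.1 reads. H3K4me3 was highest at H3f3a (chr1:180811951-180814800), with 340.3, 599.2 and 835.2 reads against 62.0 in the input (log2 ratio 3.23), then at H2afy, H1f0, H2afx and H2afz, all variants. The ratio was greatest at H2afy, at 4.09. H2afz had H3K18cr peaks of 132.9 and 49.0 reads at its start and H3K4me3 of 347.8. H3f3b, the highest histone transcript, had no peak within 1 kb of the start listed in the RNA table, but H3K4me3 of 256.5 reads (log2 ratio 3.31) within the gene at chr11:116023351-116024850 and H3K18cr of 149.7 reads (1.74) at chr11:116023501-116024700.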

How the data were processed

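Per the labels and the study's methods, reads were trimmed (Trim Galore 0.4.2) and mapped to GRCh38 or GRCm38 (Bowtie2 2.2.5 and TopHat2 2.0.12 in the processing notes). For ChIP the study's methods also name another version of Trim Galore. In place of these mappers they name another version of Bowtie2 for ChIP and HiSat2 for the mouse RNA, and the aligner of the HCT116 RNA is not settled by these sources. RNA was poly(A)-selected. Whether counting used strand is not given in the sources used here. The authors deposited raw counts per gene for RNA, log2 of reads per peak scaled to the largest library for HCT116 ChIP, and the scaled reads themselves (signal) for the colon. Each table has 1 list of MACS peaks, over which every library was counted, with duplicates removed.

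HCT116 RNA counts were tested with edgeR 4.0.16 (quasi-likelihood, TMM, filterByExpr, Benjamini-Hochberg adjustment over all genes, threshold 0.05). Libraries of the same number deviated together (correlations of 0.226, 0.151, 0.433 and 0.46), so results with the replicate number as a block are printed beside. DMSO 2 correlated more with MS275 4 (0.239) than with MS275 2. Peaks were tested with limma 3.58.1 (R 4.3.3) on the deposited log2 values, with a trend, for peaks with 10 or more scaled reads in at least 3 libraries. DESeq2 1.42.0 was an alternative. Both tests were tested on simulated data. The colon ratio to input used log2 with a pseudocount of 1. Exon lengths came from GENCODE, stem-loops from GRCh38 and promoters from RefSeq. The ± values are SEs of the fits or SDs over libraries, and both include spread between libraries.

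Named were every variant that passed the filter, the 10 replication-dependent genes with the highest mean CPM or any that were called, at most 5 called genes per list, HDAC1, HDAC2, HDAC3 and CDKN1A, histone peaks that were called or lay at the start of a named gene, the 5 highest histone peaks, and in the colon the 5 highest genes of each class and the 5 highest peaks of each mark. The members and gene lists were chosen with earlier results of these data known. Protein sequences were not used here.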

Additional observations from a re-analysis of the deposited data

Results flagged for a closer look

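In 96 groups of 4 RNA libraries, over the genes named in the text, 8 groups held a library whose gap to its nearest neighbour was, as a share of the group's range, above Dixon's 95% critical value for 4 values. Chance gives about 1 in 20 groups. Of the 8, 4 were histone genes. MS275 replicate 3 stood above the other MS275 libraries in HIST2H2AC (2.33 CPM against 0.218 to 0.394), HIST1H1C (21.4 against 7.67 to 9.32), HIST1H4C (13.7 against 2.52 to 4.35), HDAC3 (132.8 against 89.4 to 95.8) and CDKN1A (294.8 against 205.3 to 214.7). MS275 replicate 2 stood above the others in H2AFV (196.0 CPM against 179.8 to 181.6), and MS275 replicate 1 in MCM2 (304.8 against 200.9 to 216.7). DMSO replicate 1 stood above the other DMSO libraries in ANP32E (254.0 CPM against 186.4 to 197.5).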

How the results depend on the processing

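Of the replication-dependent genes, 52 of 70 did not pass the filter on low counts, and what part depth had in this was not tested. With the replicate block over the RNA libraries, 2151 genes and 4 variant histone genes passed, DESeq2 gave 161 genes and no filter gave 13. Log2 fold changes turned in sign with the block for HIST2H2AC (−0.14) and HIST1H2BN (−0.37). Leaving out 1 library gave 0 to 1 genes, and with the block, leaving out pair 1, 2, 3 or 4 gave 968, 994, 2584 or 1037. Without 1 library, the log2 fold changes of genes that were not called ranged across 0 for HIST2H2AC (−1.35 to 1.05), HIST3H2A (−0.20 to 0.037), HIST1H1C (−0.040 to 0.68), HIST1H4C (−1.09 to 0.53), HIST1H2AG (−0.56 to 0.32), HIST1H2BK (−0.33 to 0.022), HIST1H3H (−1.39 to 0.15), HIST1H2BN (−0.72 to 0.71), H2AFX (−0.27 to 0.44), H2AFJ (−0.36 to 0.75), H3F3C (−0.11 to 0.043), H3F3B (−0.10 to 0.033), HDAC2 (−0.16 to 0.019) and HDAC3 (−0.0083 to 0.25). With the block and without 1 pair they did so for HIST2H2AC (−0.33 to 0.22), HIST3H2A (−0.15 to 0.074), HIST1H2AC (−0.087 to 0.64), HIST1H2AG (−0.67 to 0.57), HIST1H3H (−1.14 to 0.70), HIST1H2BN (−1.20 to 0.60) and H3F3C (0.055 without pair 1, 0.014 without pair 2).

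For H3K18cr, 5206 peaks passed in all under TMM scaling and 5481 without the trend, 5920 to 12600 without 1 library. Under TMM scaling, with or without the block, the median of replication-dependent peaks was −0.43, and without the trend 7 variant peaks were lower. For H3K18ac, 1443 to 9316 peaks passed without 1 library, with 0 to 22 replication-dependent and 1 to 11 variant peaks lower, and 7 replication-dependent peaks were lower without the trend. Same-numbered ChIP libraries did not deviate together in every pair (H3K18cr correlations of 0.108, 0.073 and 0.229, H3K18ac −0.207, 0.046 and −0.134), so the numbers are not taken as pairs here, although the study's own test of the marks over starts was paired. With the replicate block 814 H3K18ac peaks passed (2.01% of all peaks lower), with 0 replication-dependent and 0 variant peaks lower. In H3K18cr 38 histone peaks were lower and 1 was higher (26.1% and 0.515% of all peaks). The H3K18ac peaks chr6:27806551-27807900 and chr6:27814801-27818550, not called, turned to 0.14 and 0.12 under TMM scaling, with or without the block, and ranged from −0.45 to 0.13 and −0.43 to 0.25 without 1 library. The cause was not tested in any of these cases.

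In the colon, shares of each library's own total turned the median ratio to input to −0.10 for H3K18cr and −0.47 for H3K4me3, and a pseudocount of 10 gave 1.27 for H3K4me3. Without the gene with the highest count, variants took 2575 CPM in DMSO, 2667 in MS275 and 970.7 in the colon, and replication-dependent genes 143.1 in the colon.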

Other observations

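Chosen after its values were seen and outside the naming rule, HIST1H4H, an H4 gene under the filter on low counts, had 0 counts in each of the 4 DMSO libraries and 35, 19, 9 and 0 in the MS275 libraries. It was not tested. Its H3K18cr peak (chr6:26283751-26287950, GRCh38) fell by 0.61 on the log2 scale (SE 0.18, limma adjusted p = 0.0119). A narrow peak at the start of HIST1H2BB (chr6:26043601-26044050) had the highest H3K18cr log2 fold change of the histone peaks, 1.363 ± 0.57 SE, without passing in the fit without the block (limma adjusted p = 0.085), from 14.0, 10.9 and 1.55 scaled reads in DMSO and 13.5, 21.2 and 14.0 in MS275. With the replicate block this peak passed as higher.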
